A study of Danio rerio with 8 samples.

Results

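The genes hoxb1a, hoxb2a, hoxb3a, hoxb4a, hoxb5a and hoxb6a of the zebrafish hoxba cluster were followed in single neurons of the CaD nucleus of the caudal brainstem. They were taken by their Ensembl IDs (ENSDARG00000008174, ENSDARG00000000175, ENSDARG00000029263, ENSDARG00000013533, ENSDARG00000013057 and ENSDARG00000010630, in that order), and all 6 were present among the 37287 features of the deposited table. The neurons came from larvae of the line named Tg (gly2:GFP) in the labels, in which regulatory sequence of the glycine transporter gene glyt2 drives GFP. They were also filled with a dye injected into the spinal cord, so each sends an axon there. The content of 1 cell per fish was collected with a pipette for RNA amplification and sequencing, which gave 8 libraries of 1 group, with no treatment and no second cell type. They are called M1, M2, M5 and M6, and further M9, M11, M16 and M17.

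Hox genes encode homeodomain transcription factors that give cells along the body axis their regional identity. They lie in clusters, and the order of the genes on the chromosome follows the order of their anterior expression limits. Genes at the 3′ end reach farthest forward into the hindbrain, and genes toward the 5′ end are limited to the caudal hindbrain and the spinal cord. In the embryonic hindbrain of vertebrates, hoxb1a is the gene of the fourth rhombomere, hoxb2a reaches farther forward than both of its neighbors, an exception to the order, hoxb3a is strongest in the fifth and the sixth rhombomere, and hoxb4a begins near the caudal end of the hindbrain. Hoxb5a and hoxb6a have limits near or behind the junction with the spinal cord. These limits are those of embryos, whereas the neurons measured here came from older fish, at the larval stage. In the RefSeq annotation (assembly GRCz12tu) the genes follow each other in this order, and the annotated span of hoxb3a encloses those of hoxb4a, hoxb5a and hoxb6a.

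The reads behind each value were recovered from the FPKM, a unit in which reads are scaled to the length of the gene and to the depth of the library. The libraries held between 9861756 and 13761924 counted reads, apart from M1 with 47723986. M1 stood apart in another way. When the reads of M11, M16 and M17 were added up, M1 reached or passed the total at 96.6% of the 17838 features for which it was 10 or more, and it matched the total exactly at 43.7%. M1 may therefore not be independent of these 3 libraries, and the main counts, means and medians are given with and without it. Pan-neuronal genes were detected throughout, with 5 to 7 of the 7 IDs of the list at FPKM 1 or above in each library. Of the labeled transmitter identity there was less sign. SLC6A5, the glycine transporter whose promoter drives the GFP, reached an FPKM of 1.22 in M11 and stayed below 1 in the other 7 libraries. SLC32A1, the vesicular transporter of glycine and GABA, was at an FPKM of at least 1 in M1, M6, M11 and M17. A list drawn up for V0d and dorsal V0 neurons had 7 IDs (DBX1, EVX1, EVX2 and PAX7), and no library had more than 1 at this limit. Not all of these genes mark V0d neurons, so this count cannot decide on that identity. From single-cell sequencing the paper reports glycinergic and V0d markers in CaD neurons. It also reports that they inhibit motoneurons through glycine receptors, an effect blocked by strychnine. All 8 libraries held RNA of myelin genes, and the summed FPKM of the oligodendrocyte list ranged from 516.6 in M5 to 37724 in M1.

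Only the second gene of the cluster was shared by most cells. Hoxb2a was at an FPKM of at least 1 in 6 of 8 libraries (5 of 7 without M1), hoxb3a in 1, and hoxb1a, hoxb4a, hoxb5a and hoxb6a in none. Of all features, 20.3% reached FPKM 1 in at least 6 of the 8 libraries (20.9% in at least 5 of the 7 without M1), 13.2% in exactly 1 (15.9% without M1) and 42.3% in none (42.5% without M1). Of the 48 gene-by-library values, 7 were at or above the limit, or 6 of 42 without M1. The share of all features at the limit was 19.4% in M17, 25.8% in M2, 26.2% in M16, 29.4% in M9, 31.2% in M5, 34.6% in M1, 35.8% in M11 and 36.6% in M6.

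**Figure D1:**
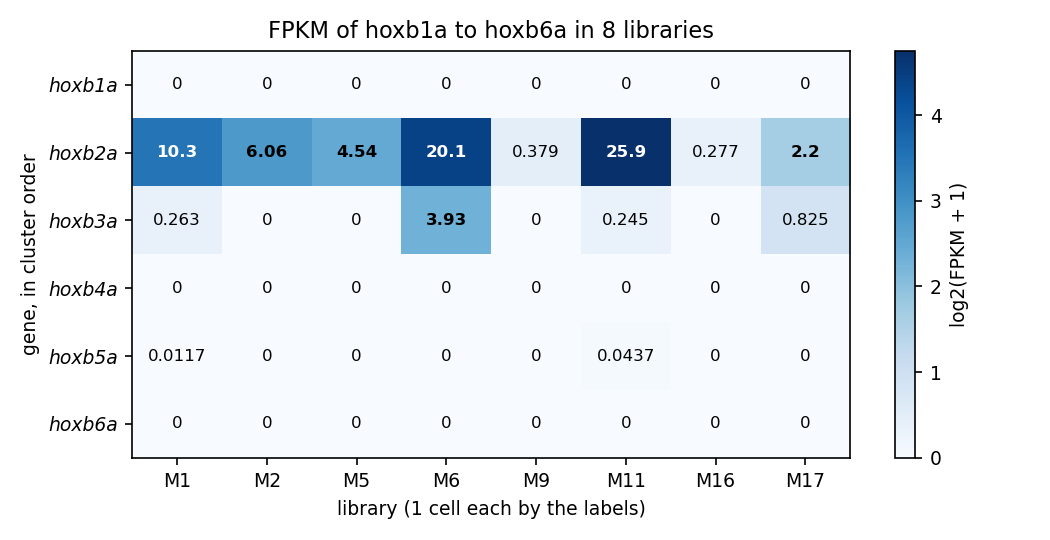
FPKM of the 6 genes (rows, in cluster order) in the 8 libraries (columns), with the color giving log2(FPKM + 1) and values of at least 1 in bold. The hoxb2a row holds 6 of the 7 values at or above 1, and the other is hoxb3a in M6.

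Hoxb2a, which takes part in patterning the anterior hindbrain, had an FPKM of 25.9 in M11, 20.1 in M6, 10.3 in M1, 6.06 in M2, 4.54 in M5, 2.20 in M17, 0.379 in M9 and 0.277 in M16. Reads of this gene were thus found in every library, but M9 and M16 lay below the limit and more than 5-fold below the next library. The mean was 8.73 ± 9.54 FPKM (SD, n = 8; median 5.30), or 8.50 ± 10.3 without M1 (SD, n = 7; median 4.54), and the highest library exceeded the lowest 93.6-fold.

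The number of reads behind these values differed widely. Hoxb2a had 607 reads in M11, 508 in M6, 142 in M2, 87 in M5 and 46 in M17, against 7 in M9 and 5 in M16. With exact Poisson intervals at the 95% level, the FPKM lay between 1.61 and 2.93 in M17, the lowest library above the limit. It lay between 0.152 and 0.781 in M9 and between 0.0899 and 0.646 in M16. Counting error alone therefore moved no library across the limit for this gene. Such intervals hold for counting error alone, because reads were amplified before they were counted and several may come from 1 transcript.

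Among the features at FPKM 1 or above in the same library, hoxb2a ranked above 82.5% in M11, 79.2% in M6, 76.3% in M1, 51.5% in M2, 46.96% in M5 and 25.3% in M17. It was thus an abundant mRNA in M6 and M11 and in the lower part of the detected range in M17. In M1 the gene had 903 reads, of which the 658 reads of M11, M16 and M17 together would make up all but 27.1%. Without M11, M16 and M17, and with M1 kept in their place, hoxb2a was at the limit in 4 of 5 libraries with a median of 6.06 FPKM.

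Hoxb3a, a gene of the more caudal hindbrain, had an FPKM of 3.93 in M6, 0.825 in M17, 0.263 in M1 and 0.245 in M11, and was listed at 0 in M2, M5, M9 and M16. Only M6 stood above the limit, with 138 reads, and there hoxb3a ranked above 41.6% of detected features. The 24 reads of M17 gave an interval of 0.528 to 1.23 FPKM, which includes the limit, so whether hoxb3a counts as present in M17 could not be settled at this depth. The 8 reads of M11 gave 0.106 to 0.484 FPKM. The 32 reads of M1 were exactly the sum of the 8 in M11 and the 24 in M17, so M1 adds no hoxb3a reads to theirs. For the 4 libraries at 0, the same intervals reached up to 0.113 FPKM in M2, 0.138 in M5, 0.144 in M9 and 0.147 in M16.

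The count for hoxb3a followed the detection limit more than that of any other gene of the 6. It was 4 of 8 libraries at a limit of 0.1 and when any value above 0 counted, 2 at 0.5, 3 when 10 reads were required, and 0 at a limit of 5. M1 was 1 of these libraries at 0.1, above 0 and with 10 reads. After the FPKM of each library were scaled to an equal sum it was 2, M17 being added. Without M6 no library had hoxb3a at FPKM 1. Hoxb2a was in 6 libraries at limits of 0.5 and 1, with 10 reads and after rescaling, in 8 at 0.1 and in 4 at 5.

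**Figure D2:**
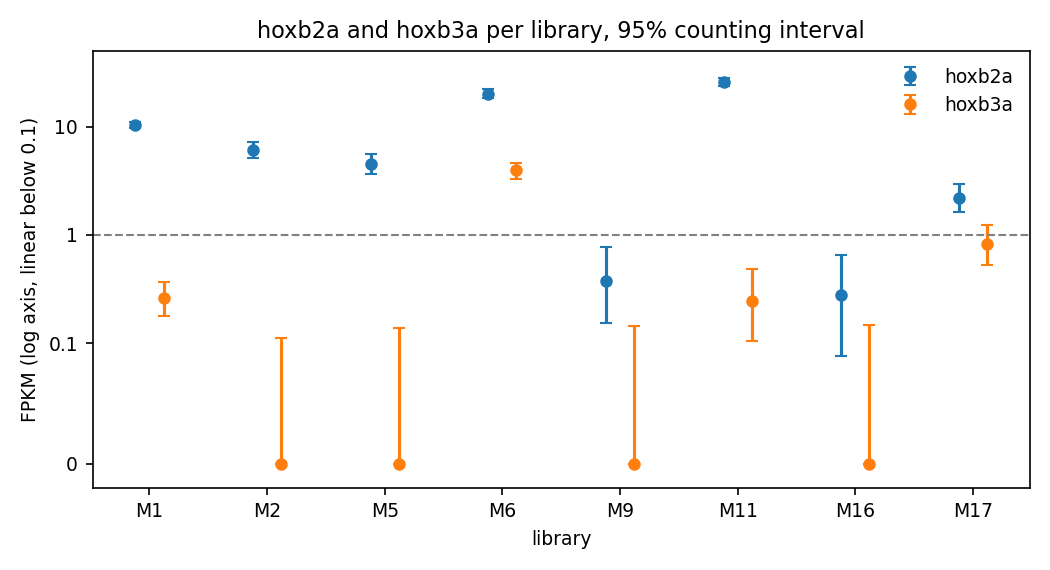
FPKM of hoxb2a (blue) and hoxb3a (orange) in each library, with exact 95% Poisson intervals for counting error as bars and the limit of FPKM 1 as a dashed line. No hoxb2a interval crosses the line, and 1 hoxb3a interval does, that of M17 from 0.528 to 1.23.

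The remaining 4 genes gave next to no reads. Hoxb1a, hoxb4a and hoxb6a were listed at 0 in all 8 libraries, as were 26.3% of all features (26.7% without M1). Over the 7 libraries without M1 each of these genes had 0 of 81174384 counted reads. The exact Poisson interval for 0 reads, at the level used above, reaches up to 3.69 reads in all. For scale, 3 reads in a single one of these libraries would be 0.150 to 0.210 FPKM at the median feature length of 1450 bases. The bound of 3.69 reads covers counting error alone, since a transcript that was not amplified leaves no read, and lower levels cannot be told from 0. The lengths of these 3 genes in the authors' annotation are not known, because a length can be recovered only for a feature with reads.

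Hoxb5a had 1 read in M11 (0.0437 FPKM) and 1 in M1 (0.0117 FPKM), and 0 in the other 6 libraries. The 1 read in each is the smallest number that fits the values. Since M1 equals the sum of M11, M16 and M17 for this gene, M1 and M11 may hold the same read. How the authors' counting treated reads in exons that hoxb3a might share with hoxb4a, hoxb5a or hoxb6a was not tested.

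In the order of the levels hoxb2a came first in every library, and its neighbors on both sides were lower. On the log2(FPKM + 1) scale the median difference of hoxb3a from hoxb2a was -2.28 (range -4.43 to -0.35, SD 1.45, n = 8), and hoxb3a was the lower in 8 of 8 libraries. Without M1 the median difference was -2.10, and hoxb3a was the lower in 7 of 7. The smallest gap was in M16, where both genes were below FPKM 1. Although hoxb3a was lower within each library, the ranges overlapped between libraries, because hoxb3a in M6 exceeded hoxb2a in M9, M16 and M17. Hoxb3a exceeded hoxb4a in 4 libraries and equalled it at 0 in 4 (3 and 4 without M1), and the genes beyond hoxb3a could not be ordered.

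Hoxb2a made up nearly all of the reads per length that the 6 genes had together. The summed FPKM of the 6 genes was 26.2 in M11, 24.1 in M6, 10.6 in M1, 6.06 in M2, 4.54 in M5, 3.02 in M17, 0.379 in M9 and 0.277 in M16. Hoxb2a took 72.7% of it in M17, 83.7% in M6 and at least 97.4% in the other 6 libraries.

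The cells fell into 3 patterns of presence. Hoxb2a alone was present in M1, M2, M5, M11 and M17. Hoxb2a and hoxb3a were present in M6, and no gene of the 6 in M9 and M16. Where more than 1 gene was present, the genes were neighbors in the cluster, and no library held a caudal member without hoxb2a. With a single library of this kind, that order is a description of M6. Hoxb1a, the 3′ neighbor, was absent from all 3 patterns.

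Pairs of cells were compared by how many of the 6 genes had the same call. All 6 calls were the same in 11 of 28 pairs, 5 in 15 pairs and 4 in 2 pairs (M6 against M9 and M16), so the median agreement was 83.3%. Without M1 the numbers were 7, 12 and 2 of 21 pairs with the same median. Over all features the median share with the same call was 81.1% (range 75.2% to 87.5%), or 80.5% without M1, so that agreement on the 6 genes was close to that on features in general. Most of the agreement between cells lay in the 4 genes absent from all. Both cells had hoxb2a in 15 of 28 pairs (10 of 21 without M1), and these were all the pairs in which any of the 6 genes was present in both. At least 1 cell had any of the 6 genes in 27 pairs (20 without M1). Of all features present in either cell of a pair, a median of 51.4% were present in both (48.6% without M1). That share is over features, whereas the hoxb2a count is over pairs.

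The libraries with the most hoxb2a also had the most features detected, and these were M6 and M11 when M1 was left out. FPKM 1 was reached by 13643 features in M6, 13335 in M11 and 12900 in M1, the 3 libraries with the highest hoxb2a, against 7224 to 11636 in the other 5. Within those 5 the orders differed, as M9 and M16 had 10971 and 9754 features but the lowest hoxb2a, and M17 had the fewest features and 2.20 FPKM of hoxb2a. M16 and M9 were also the libraries with the fewest counted reads, 9861756 and 10083385, followed by M5 with 10460736 reads and 4.54 FPKM of hoxb2a.

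The sum of radial glia and astroglia markers moved with hoxb2a in part, and single markers differed. For the 6 genes of this list 10 IDs were found, of which 9 were at FPKM 1 in M11, 8 in M1 and M6, 7 in M16, 6 in M2 and M5, 4 in M9 and 3 in M17, and 1 ID was at 0 in all. The share of all features at FPKM 1 was also highest in M6 (36.6%), M11 (35.8%) and M1 (34.6%), and lowest in M17 (19.4%). The summed FPKM of the 10 IDs was 11536 in M11, 3679 in M1, 3176 in M6, 1277 in M16, 666.9 in M2, 475.4 in M5, 214.3 in M9 and 208.5 in M17. Most of the sum in M11, M1 and M6 came from 1 ID of FABP7 (ENSDARG00000007697), with 8963, 2641 and 1975 FPKM. The highest hoxb2a and the highest glial sum were thus both in M11, whereas M16 had the lowest hoxb2a and more glial RNA than M2 and M5. The oligodendrocyte sum did not follow the order of hoxb2a, with 22328 FPKM in M11, 978.9 in M6 and 37398 in M2. GFAP, the intermediate filament of astroglia, ranged from 0.859 in M17 to 24.2 in M11, and was lower in M6 (9.79) than in M2 (12.5). S100B was highest in M11 (1143) but lower in M6 (100.6) than in M2 (130.7) and M9 (109.7). Transmitter markers, the labeled one included, were likewise highest in M11. The 2 glycinergic IDs (SLC6A5 and SLC32A1) summed to 28.2 FPKM in M11, 8.95 in M1, 5.75 in M17 and 3.02 in M6, and to at most 0.168 elsewhere. Of the 2 glutamatergic IDs, both named SLC17A6 (a vesicular glutamate transporter), 1 was at FPKM 1 in each of M11, M1 and M6. The summed FPKM was 13.98, 3.79 and 2.23 in these. In M11 and M1 the ID at the limit was ENSDARG00000041150, which was at 0.422 in M6. In M6 it was ENSDARG00000001127, at 1.81 there and at 0 elsewhere. Neither was at FPKM 1 in the other 5 libraries, where the sum ran from 0 in M9 to 0.145 in M17. The 3 IDs for GABA synthesis (GAD1 and GAD2) summed to 113.6 FPKM in M11, 35.0 in M1, 25.2 in M6, 20.1 in M16 and 1.61 in M2, and to between 0.210 and 0.993 in M5, M9 and M17. M11, M1 and M6 thus led on the glutamatergic and GABA lists, as for hoxb2a, while M16 had GABA synthesis genes at the lowest hoxb2a. M1 may not be independent of M11, and without M1 only M11 and M6 carry this likeness. The part of depth, detected features, glial RNA and these transmitter markers in the level of hoxb2a was not tested.

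**Figure D3:**
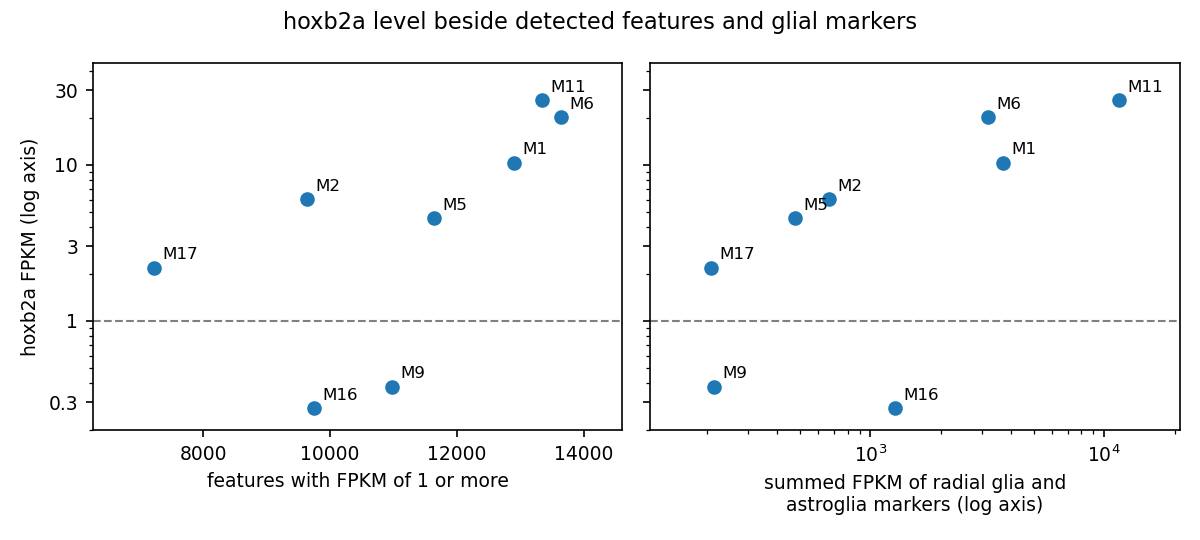
FPKM of hoxb2a (log axis) against the number of features at FPKM 1 or more (left) and against the summed FPKM of radial glia and astroglia markers (right, log axis), each point being 1 library and the dashed line FPKM 1. M1, M6 and M11 are highest on all 3 measures, and M16 has the lowest hoxb2a at a glial sum of 1277. Most of the glial sum in M1, M6 and M11 came from 1 ID of FABP7. M1 may not be independent of M11, M16 and M17.

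Hox genes of the other clusters and positions were then counted to place these 6 genes. With the other Hox IDs that could be matched, 42 from 43 names with hoxa4a unmatched, 48 Hox IDs were measured in all, and 5 of them were at FPKM 1 in any library, with or without M1. Besides hoxb2a and hoxb3a these were hoxc1a, hoxa2b and HOXB7, the latter pair named after their values were seen. Of all features, 57.7% reached FPKM 1 in any library (57.5% without M1). Of the 48 IDs, 21 were listed at 0 in all 8 libraries (22 in the 7 without M1), against 26.3% of all features (26.7% without M1).

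Hoxa2b, which shares paralog group 2 with hoxb2a, had an FPKM of 6.68 in M6, 1.998 in M5, 0.940 in M11, 0.263 in M1 and 0.0530 in M16, and was at 0 in M2, M9 and M17. It was thus highest where hoxb3a was highest, in M6. M6 was also the only library with 3 hindbrain Hox genes of groups 2 and 3 at FPKM 1. Over all Hox groups M5 and M6 had 4 IDs each at FPKM 1, and 31.2% and 36.6% of all features were at this limit in them. Hoxc1a was at FPKM 1 in all 8 libraries, from 3.78 in M11 to 22.2 in M2, so that paralog group 1 was represented by this gene while hoxb1a and hoxb1b were at 0. Its recovered length was 8400 bases, against 1832 for hoxb2a, and which parts of that length the reads fell on cannot be seen in the values. HOXB7, the nearest neighbor of hoxb6a on the 5′ side, had an FPKM of 1.61 in M5 and at most 0.257 elsewhere.

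No gene of paralog groups 4, 5 and 6 was at FPKM 1 in any library. The 3 IDs of group 4 were at 0 throughout, and the summed FPKM of group 5 was at most 0.0539 and of group 6 at most 0.0849. Groups 8 to 13, with 26 IDs, also had none at FPKM 1. Of all features, 42.3% were at FPKM 1 in no library (42.5% without M1). By paralog group, a Hox gene was at FPKM 1 in 8 libraries for group 1, in 6 for group 2 and in 1 each for groups 3 and 7. Without M1 the numbers were 7, 5, 1 and 1 of 7 libraries.

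**Figure D4:**
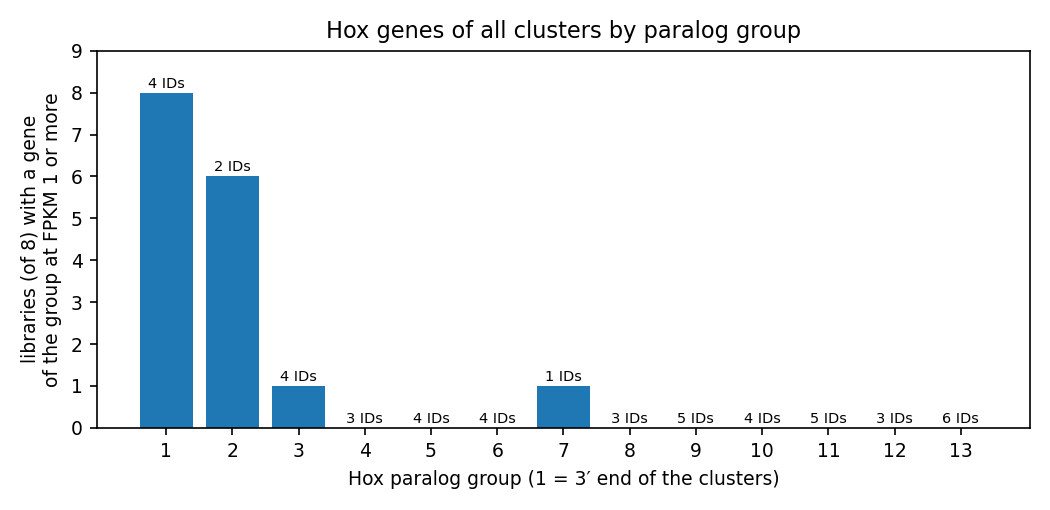
Number of libraries, of 8, with at least 1 Hox gene of a paralog group at FPKM 1 or more, for groups 1 to 13, with the number of IDs measured in each group above its bar. Groups 1 and 2 reach 8 and 6 libraries, groups 3 and 7 reach 1, and the others 0. The bar of group 1 rests on hoxc1a alone.

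Hox proteins of the anterior groups bind DNA with partners of the Pbx and Meis families. All 11 IDs of these families were at FPKM 1 in at least 1 library, and 6 were in all 8 (pbx1a, pbx1b, pbx4, MEIS1, MEIS2 and meis2b), with the same numbers without M1. Of all features, 57.7% reached FPKM 1 in any library, and 3743 of 37287 did in all 8. Each library had between 6 and 11 of them. Pbx4, which in zebrafish is needed for Hox function in the hindbrain, had an FPKM from 2.66 in M17 to 75.8 in M6, with a median of 29.1 (33.5 without M1). Meis2b had the highest median of the list, 52.1 (47.1 without M1), and ranged from 6.65 in M17 to 116.6 in M16. M9 and M16, which lacked hoxb2a at the limit, had 24.8 and 16.6 FPKM of pbx4 and 47.1 and 116.6 of meis2b. Of the 11 IDs, 9 and 8 were at FPKM 1 in them. Among the others, named after their values were seen, pbx3a and meis1a were at 0 in both, as in M2, and pbx2 was at 0.0380 in M16. The lowest summed FPKM of the list was in M17 (40.004) and the highest in M11 (573.6).

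**Figure D5:**
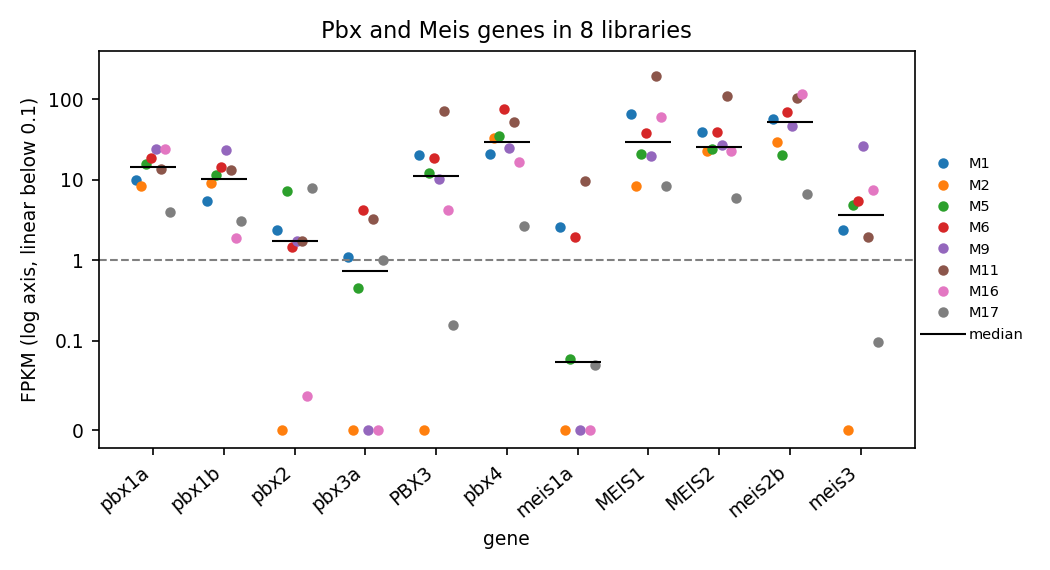
FPKM of 11 Pbx and Meis IDs in 8 libraries (colored points, log axis with a linear part below 0.1), with the median as a black bar and FPKM 1 as a dashed line. For 6 of the genes all 8 points lie above the line, and the points of M17 are among the lowest for most genes.

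Of the 12 IDs for hindbrain segment and retinoic acid genes, 7 were at FPKM 1 in at least 1 library, against 57.7% of all features. An ID named RARG, a retinoic acid receptor, was at FPKM 1 in 7 of 8 libraries (6 of 7 without M1), from 1.16 in M17 to 16.5 in M16, and at 0 in M9. Another ID of that name was at 0 in all 8.

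The genes whose levels across the 7 libraries without M1 were most like those of hoxb2a were sought among the 14409 features that averaged FPKM 1 or more. The closest was adcyap1b, which encodes a neuropeptide of the PACAP family, with a Pearson correlation of 0.994 on the log2(FPKM + 1) scale. It had an FPKM of 61.5 in M6, 60.9 in M11, 20.6 in M2, 14.9 in M5, 7.71 in M17, 4.39 in M9 and 4.18 in M16. The next was zgc:163022 with 0.994. With 7 points per feature, which share the libraries' depth and numbers of detected features, 292 features had a correlation of at least 0.9, so that a high value did not set a gene apart.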

How the data were processed

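The submitters' processing notes name HISAT2 2.0.4 and HTSeq 0.9.1, the paper's methods another HTSeq version, and the genome build and annotation are not given in the sources used here, so no coordinates are printed. The authors divided read counts by gene length and library depth and deposited FPKM, the unit of all 8 columns. Library totals were recovered as the smallest whole numbers that fit the commonest ratios between libraries, and reads as whole numbers within 1e-05. The length of a feature was the smallest that made its reads whole in every library. For a feature with reads in few libraries, the read numbers are therefore minima. Recovered reads came to between 99.87% and 99.95% of each total. The recovery was also tried on simulated data with smaller library totals, so that trial does not give the share of read numbers that are exact here. As reads were paired, a counted read may stand for a pair.

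The 6 genes and the gene lists were chosen with earlier results of these data known. Presence meant an FPKM of at least 1. IDs were paired with symbols through a gene name table, in which 29178 of 31901 Ensembl IDs had one. It gives most of the 6 genes by their human symbol (HOXB2 for hoxb2a), and names in capitals in the text are such symbols. List genes were named with values when at FPKM 1 in at least 6 of the 7 libraries without M1 or highest in median, and others only as stated; the values of 1 such gene are not reported here. With 1 group no comparison between groups was made, and a library far from the others was sought with Dixon's critical values; the labels name 1 cell from each fish. Alternatives were other limits, a minimum of 10 reads, rescaling, a pseudocount of 0.1 in place of 1, and leaving out libraries. Sequences were not used here. Python 3.11.15, numpy 2.4.6, pandas 2.3.3, scipy 1.17.1 and matplotlib 3.10.9 were used.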

Additional observations from a re-analysis of the deposited data

Results flagged for a closer look

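For 2 of the 6 genes, 1 library lay far from the other 7. For hoxb3a the gap between M6 and the next library, M17, was 0.790 of the whole range of FPKM, above Dixon's 95% critical value for 8 values, and it was also 0.790 without M1, above the critical value for 7. For hoxb5a the gap between M11 and M1 was 0.732 of the range, but it rests on 1 read in each, the smallest number that fits. Hoxb2a had no such library, with 0.225. For normally distributed values about 1 in 20 such comparisons would be so marked by chance, a rate that need not hold here, since hoxb3a was at 0 in 4 libraries and hoxb5a in 6.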

How the results depend on the processing

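Of 215 values recomputed under an alternative, 202 stayed within 1.5 times the main count or 1 SD of the main value, 13 did not, and none changed sign. Many of the 202 could not move, because hoxb1a, hoxb4a and hoxb6a were at 0 in every library. Leaving out M1 was also counted under 2 settings, so the 202 do not measure how stable the results are. With an FPKM limit of 5 the median number of genes present per cell fell from 1 to 0.5, and the number of the 6 genes present in any cell from 2 to 1. Leaving out each library in turn gave 1 to 2 of the 6 genes present in any cell and a median agreement between cells of 83.3% to 100%. The lowest count and the highest agreement came without M6, the only library with hoxb3a at the limit. The other 9 values concern hoxb3a (7, given above), hoxb5a, which was in 2 libraries when any FPKM above 0 counted, and the log2 difference of hoxb2a from hoxb1a, a median of 2.64 with a pseudocount of 1 and 5.74 with 0.1. No paired analysis was possible because all libraries belong to 1 group. A value of 5 to 8 reads may rest on few molecules, and an FPKM of 1 stood for 14.3 to 19.95 reads at the median feature length in the 7 libraries without M1.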

Other observations

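Genes that mark more rostral parts of the brain were also present. Of 11 IDs for forebrain and midbrain axial genes, 4 were at FPKM 1 in at least 1 library, against 57.7% of all features. An ID named DMBX1 (ENSDARG00000009922) was at FPKM 1 in all 8 libraries, from 3.10 in M16 to 39.9 in M5. En1b, an engrailed gene of the midbrain-hindbrain boundary and of some inhibitory neurons, was named after its values were seen. It had an FPKM of 126.9 in M11, 40.5 in M1, 31.0 in M16, 23.7 in M6, 8.68 in M2, 3.16 in M5, 0.223 in M17 and 0.168 in M9. Of the 3 IDs of the caudal list, 2 were at FPKM 1 in 1 library each, as were 13.2% of all features. Cdx1a reached 3.79 in M16, and had 0.814 in M1, 0.130 in M17, 0.126 in M6 and 0 elsewhere. Cdx1b reached 1.46 in M9, and had 0.0945 in M6 and 0 elsewhere, and cdx4 was at 0 in all 8. The cdx genes were likewise named after their values were seen.

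CYP26B1, an enzyme that breaks down retinoic acid, was also named after its values were seen and had an FPKM of 226.0 in M11, 62.8 in M1, 14.7 in M5, 10.8 in M16, 10.7 in M6, and below 1 in M2, M9 and M17. ALDH1A2, an enzyme that makes retinoic acid and named in the same way, was at 2.17 in M2 and 1.29 in M6 and at 0 in the other 6 libraries.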
